A study of Homo sapiens with 6 samples.

Results

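The replication-dependent histone genes were taken as every probe set of the value table that is annotated with exactly 1 gene symbol, where that symbol is H1-1 to H1-6 or begins with H2AC, H2BC, H3C or H4C and a digit. This gave 58 genes with 1 probe set each, of 19460 probe sets with 1 symbol. They comprised 6 H1, 14 H2A, 17 H2B, 8 H3 and 13 H4 genes. H4C14 and H4C15 carried identical values in every array, so the 58 genes stand for 57 measurements. H2BC19P is annotated as a pseudogene, and H1-6, H2AC1 and H2BC1 are known as testis histones.

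Neural stem cells (NSCs) at passage 14, which had been made from the SA-01 line of human embryonic stem cells, received X5050 at 100 µM or the solvent DMSO at 0.1% from 5 h after plating, and total RNA was taken 24 h later. Each treatment had 3 arrays from independent cultures of this single line, and arrays of the same replicate number, called cultures 1, 2 and 3 here, were paired for X5050 minus DMSO. The series title names X5050 an inhibitor of REST, a repressor of neuronal genes. Values are log2 signals, so a difference of 1 is a doubling, and 3 arrays per treatment limit their precision.

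Histones are the proteins around which DNA is wound: H2A, H2B, H3 and H4 form the core of the nucleosome and H1 binds the linker between nucleosomes. The genes described here are transcribed mainly while DNA is being copied, lie in dense clusters, lack introns, and give mRNAs that end in a stem-loop bound by SLBP instead of a poly(A) tail. Whole-transcript labelling is primed at random positions and so does not depend on a poly(A) tail. Proliferating neural stem cells use these mRNAs in S phase, and their level falls when copying of DNA stops. Coding sequences of many genes within a class are near-identical, and most H4 genes encode the same protein. A probe set may therefore also read close relatives of the gene it is named for, and single-gene values are uncertain to that extent.

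The promoters of the member with the smallest p-value in each class and of H2BC3, the member with the highest change, are shown because histone promoters differ by class. Each line gives the 200 bases before the transcription start in RefSeq (GRCh38.p14), 5′ to 3′ on the gene's strand. Capitals mark 3 kinds of motif. The first is CCAAT, searched on both strands of the DNA. The second is TATAAA, searched on the strand of the gene alone. The octamer ATTTGCAT, known to be bound by POU2F1 in H2B promoters, was searched on both strands, and a match on the other strand appears as the reverse complement. The H4C8 window held none of these.
H2BC14: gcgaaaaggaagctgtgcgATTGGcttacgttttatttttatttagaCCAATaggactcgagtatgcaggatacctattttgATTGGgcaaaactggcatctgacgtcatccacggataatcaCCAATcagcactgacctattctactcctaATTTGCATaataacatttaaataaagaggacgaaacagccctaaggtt
H2BC3: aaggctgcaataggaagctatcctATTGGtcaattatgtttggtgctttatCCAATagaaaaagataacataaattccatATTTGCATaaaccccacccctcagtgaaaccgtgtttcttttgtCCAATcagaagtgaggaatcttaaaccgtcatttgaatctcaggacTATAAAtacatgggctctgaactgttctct
H2AC20: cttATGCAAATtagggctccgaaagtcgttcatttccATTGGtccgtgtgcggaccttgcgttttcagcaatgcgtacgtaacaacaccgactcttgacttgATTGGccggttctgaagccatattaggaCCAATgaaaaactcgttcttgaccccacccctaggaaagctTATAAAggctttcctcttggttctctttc
H1-3: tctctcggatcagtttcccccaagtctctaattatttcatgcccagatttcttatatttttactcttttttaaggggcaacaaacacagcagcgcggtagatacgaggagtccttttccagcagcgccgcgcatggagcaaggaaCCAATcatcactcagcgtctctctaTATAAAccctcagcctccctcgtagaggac
H3C7: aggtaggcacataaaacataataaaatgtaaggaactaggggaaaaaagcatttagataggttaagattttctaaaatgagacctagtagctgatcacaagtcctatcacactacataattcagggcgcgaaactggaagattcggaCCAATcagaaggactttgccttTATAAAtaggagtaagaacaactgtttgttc
H4C8: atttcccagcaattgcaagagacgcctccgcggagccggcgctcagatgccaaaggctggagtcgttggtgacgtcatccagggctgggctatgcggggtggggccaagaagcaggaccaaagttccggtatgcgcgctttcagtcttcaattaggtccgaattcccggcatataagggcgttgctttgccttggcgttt
The windows lie at chr6:27814822-27815021, plus strand (H2BC14), chr6:26043714-26043913, minus strand (H2BC3), chr1:149886718-149886917, plus strand (H2AC20), chr6:26234988-26235187, minus strand (H1-3), chr6:26250636-26250835, minus strand (H3C7) and chr6:26285535-26285734, minus strand (H4C8).

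Of the 58 members 52 had such a window. CCAAT was found in all 6 H1, 13 H2A, 16 H2B and 6 H3 windows that could be read and in 3 of 11 H4 windows, against 28.9% of 27305 windows of all genes. TATAAA was found in 29 of the 52 (55.8%), against 5.93% of all windows. The octamer was found in 13 of 16 H2B windows and 6 of 13 H2A windows and in 0 of 6 H1, 0 of 6 H3 and 0 of 11 H4 windows, against 1.32% of all windows. The octamer began at position -48 relative to the start in H2BC14 and at -120 in H2BC3. Neighbouring H2A and H2B genes can share a window, so these counts are not independent. The median log2 change was -0.24 for the 13 H2B genes with the octamer and -0.35 for the 3 without it. For H2A genes the order was the other way, with -0.51 for the 6 with the octamer and -0.40 for those without it. These medians are a description of these genes only.

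Histone transcripts were lower with X5050 than with DMSO by the median of each of the 5 classes. Averaged over the cultures, 56 of the 58 genes were below 0, against 47.3% of all tested probe sets. The median log2 change of the 58 was -0.40 (1.32-fold lower), with a range of -1.16 to 0.10, while the median of all 19460 was 0.0092. In RNA from whole cultures, fewer cells in S phase or of one type and less RNA per cell cannot be told apart. A difference of at least 1.5-fold was seen for 13 members, against 0.601% of all tested probe sets, and one of at least 1.2-fold for 39, against 6.09%. Limma, with the culture as a replicate block and Benjamini-Hochberg adjustment over all 19460 probe sets, called 1 member lower at an adjusted p under 0.05, H2BC14, and 0 higher. The background was 0.308% called lower and 0.19% called higher (0.498% in either direction). At an adjusted p under 0.20 it was 26 members lower, against 3.76% of all probe sets. At an unadjusted p under 0.05 it counted 37 members lower and 0 higher, where 7.48% of all probe sets were lower and 7.06% higher. Without the replicate block 0 members were called (0% of all probe sets in either direction), and 28 were lower and 0 higher at an unadjusted p under 0.05, against 4.88% and 4.5% of all probe sets (9.37% in either direction).

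**Figure D1:**
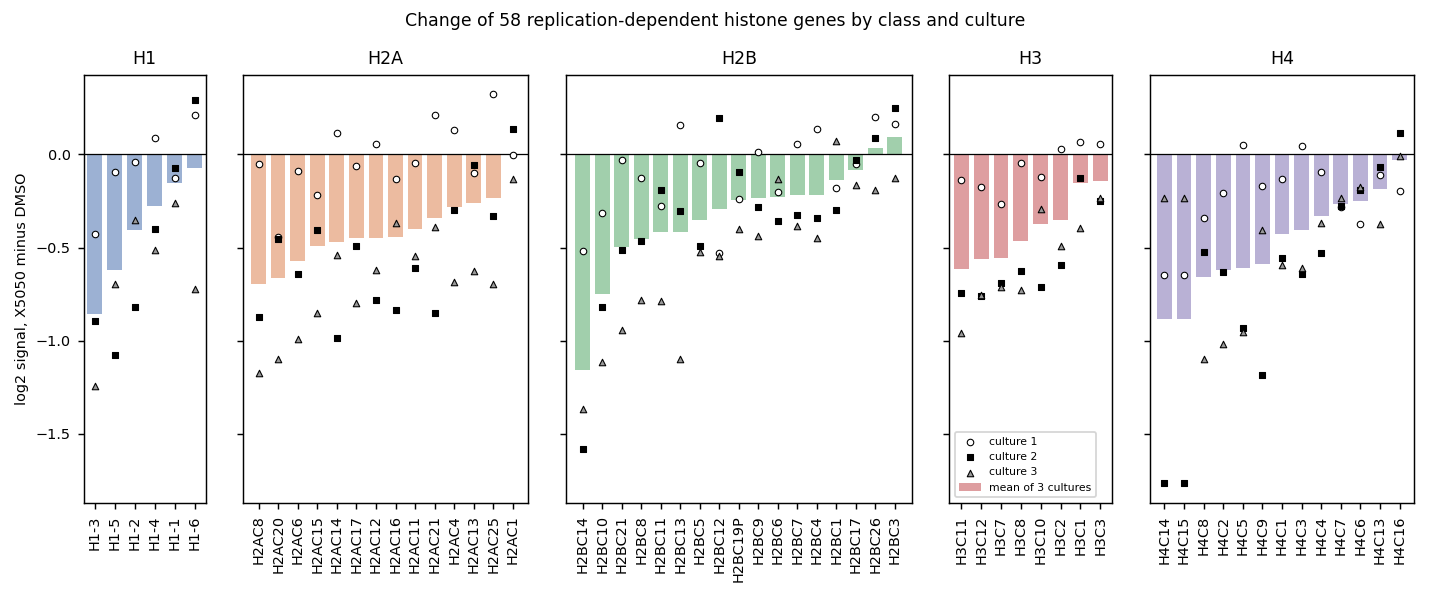
Log2 change, X5050 minus DMSO (vertical axis) for each of the 58 genes, in 5 panels by class. Bars are the mean of 3 cultures and symbols the single cultures. Bars lie below 0 for all genes but H2BC26 and H2BC3, and the open circles of culture 1 lie nearest to 0 in every class when medians are compared (-0.20 to -0.048).

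H2BC14, one of the core histone H2B genes, was the 1 member called lower in the paired limma fit. Its log2 signals were 5.99, 5.87 and 6.07 with X5050, against 6.51, 7.45 and 7.44 with DMSO, in cultures 1, 2 and 3. All X5050 values lay below all DMSO values, and the DMSO sample of culture 1 lay well below the other two. The log2 change was -1.16 (2.23-fold lower, SE 0.18, 95% interval -1.57 to -0.74, n = 3 cultures, adjusted p = 0.0466 in the paired limma fit). Each SE and interval given here is limma's, which draws a probe set's variance toward that of all probe sets. They do not measure the spread of the 3 cultures alone, which for H2BC14 had changes of -0.52, -1.58 and -1.36. Without the block the adjusted p in limma was 0.317, so the call rests on the pairing by replicate number, which the study's design text does not state outright. With a culture left out of the paired limma fit it was 0.000161 without culture 1 (change -1.47), 0.0648 without culture 2 (-0.94) and 0.269 without culture 3 (-1.05), so the call holds in 1 of these 3 cases. Each of these fits has fewer pairs and rests more on the variance of all probe sets.

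The next H2B gene by p was H2BC10, at 6.29, 6.37 and 6.35 with X5050 against 6.61, 7.19 and 7.47 with DMSO (change -0.75, SE 0.14, adjusted p = 0.0712 in limma). H2BC8 stood at 6.19, 6.06 and 6.23 with X5050 against 6.31, 6.52 and 7.01 with DMSO (-0.46, SE 0.13). H2BC11 stood at 4.06, 4.17 and 4.09 with X5050 against 4.34, 4.36 and 4.87 with DMSO (-0.42, SE 0.13). For all of these H2B genes the treatments did not overlap, and the X5050 samples lay closer to each other than the DMSO samples did. H2BC14, H2BC10, H2BC8 and H2BC11 were the 4 of 17 H2B genes without overlap. Of all tested probe sets 7.41% had X5050 below DMSO without overlap. Members were named by small p, which favours such separation. The 17 H2B genes had the smallest median change of the classes, -0.25, and 15 were below 0. At the other end was H2BC3, with 5.00, 5.16 and 4.95 with X5050 against 4.84, 4.91 and 5.07 with DMSO. Its treatments overlapped and its change was 0.10 with a 95% interval of -0.14 to 0.33, so a fall of the size seen for H2BC14 lies outside that interval. H2BC26 (0.032) was the other gene above 0, and H2BC17 stood at -0.081.

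**Figure D2:**
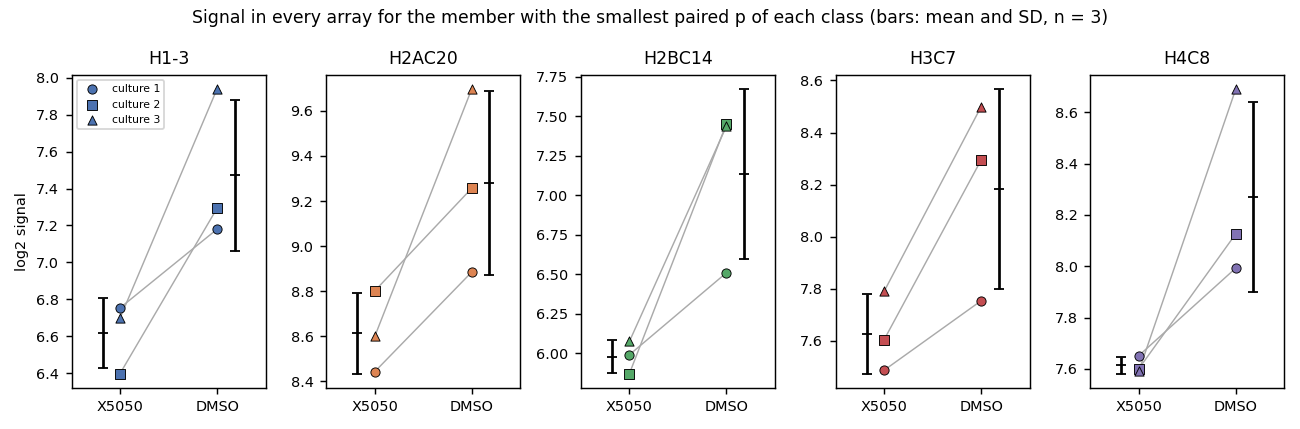
Log2 signal (vertical axis, a separate range per panel that does not start at 0) of the member with the smallest paired p of each class, with X5050 on the left and DMSO on the right. Symbols are cultures joined by lines, and bars beside them are the mean and SD of 3 arrays. Every line runs lower at X5050, and the DMSO values spread more widely than the X5050 values.

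All 6 linker histone H1 genes were below 0, with a median change of -0.34. H1-3 stood at 6.75, 6.40 and 6.70 with X5050 against 7.18, 7.29 and 7.94 with DMSO, with no overlap (change -0.85, 1.81-fold lower, SE 0.14, adjusted p = 0.0553 in limma). This narrowly missed the threshold, and it was below it (0.0447) when each array was centred on its median. Of the 6 H1 genes only H1-3 had no overlap, against 7.41% of all tested probe sets. H1-5 stood at 7.35, 6.93 and 7.64 with X5050 against 7.44, 8.01 and 8.34 with DMSO (-0.62, SE 0.17). H1-2 stood at 7.99, 7.55 and 8.15 with X5050 against 8.03, 8.37 and 8.50 with DMSO (-0.40, SE 0.14). In both, the DMSO sample of culture 1 lay inside the range of the X5050 samples. H1-4 had 9.13, 8.85 and 9.19 with X5050 against 9.04, 9.25 and 9.70 with DMSO (-0.27, SE 0.12), and H1-1 a change of -0.15. The testis form H1-6 was dim, at 3.84, 3.90 and 3.54 with X5050 against 3.62, 3.61 and 4.27 with DMSO (-0.073, SE 0.18), and was higher with X5050 in cultures 1 and 2.

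All 14 H2A genes were below 0, with a median change of -0.45 and a range down to -0.70. H2AC20 had 8.44, 8.80 and 8.60 with X5050 against 8.89, 9.26 and 9.70 with DMSO (-0.67, SE 0.14, adjusted p = 0.0835 in limma). H2AC15 had 7.11, 7.16 and 7.02 with X5050 against 7.32, 7.57 and 7.87 with DMSO (-0.49, SE 0.13). H2AC8 had 6.99, 6.51 and 6.92 with X5050 against 7.03, 7.38 and 8.09 with DMSO (-0.70, SE 0.19). These treatments did not overlap, though the gap for H2AC8 was narrow. Of the 14 H2A genes 4 had no overlap, against 7.41% of all tested probe sets. H2AC6 had 8.46, 8.55 and 8.56 with X5050 against 8.55, 9.19 and 9.55 with DMSO (-0.57, SE 0.15), where the DMSO sample of culture 1 fell among the X5050 samples. The testis gene H2AC1 was dim, at 3.63, 3.73 and 3.58 with X5050 against 3.63, 3.59 and 3.71 with DMSO. Its change was -0.00042 (95% interval -0.22 to 0.22), and a signal so dim may not show a shift.

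All 8 H3 genes were below 0, with a median change of -0.42. H3C7 had 7.49, 7.60 and 7.79 with X5050 against 7.75, 8.29 and 8.50 with DMSO (-0.56, SE 0.11, adjusted p = 0.0785 in limma), with a small overlap between X5050 in culture 3 and DMSO in culture 1. H3C12 had 6.28, 6.24 and 6.30 with X5050 against 6.45, 7.00 and 7.05 with DMSO (-0.56, SE 0.13). H3C11 had 8.49, 8.44 and 8.55 with X5050 against 8.62, 9.18 and 9.51 with DMSO (-0.61, SE 0.15). Both kept the treatments apart, and in both the X5050 samples were tightly grouped. Of the 8 H3 genes 4 had no overlap, against 7.41% of all tested probe sets. H3C8 had 5.59, 5.38 and 5.40 with X5050 against 5.64, 6.01 and 6.13 with DMSO (-0.47, SE 0.13). H3C3 had the highest change of the class, with 5.54, 5.48 and 5.62 with X5050 against 5.49, 5.73 and 5.85 with DMSO (-0.14, SE 0.099), and its treatments overlapped.

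All 13 H4 genes were below 0, with a median change of -0.43, and 11 were lower at an unadjusted p under 0.05 in the paired limma fit, against 7.48% of all probe sets. The 11 include both H4C14 and H4C15, which share 1 set of values. H4C8 had 7.65, 7.60 and 7.59 with X5050 against 7.99, 8.13 and 8.69 with DMSO (-0.66, SE 0.14, adjusted p = 0.095 in limma). H4C2 had 6.31, 6.30 and 6.33 with X5050 against 6.52, 6.93 and 7.35 with DMSO (-0.62, SE 0.14). H4C1 had 5.21, 4.73 and 5.04 with X5050 against 5.34, 5.28 and 5.64 with DMSO (-0.43, SE 0.11). None of these 3 genes overlapped between treatments. Of the 13 H4 genes 6 had no overlap, against 7.41% of all tested probe sets. The identical values of H4C14 and H4C15 were 6.08, 5.23 and 6.83 with X5050 against 6.72, 7.00 and 7.06 with DMSO (-0.88, SE 0.24). Unlike most members they varied more with X5050, and another probe set annotated to both genes together stood at -0.23, so the size of their change is uncertain. H4C16, on chromosome 12, was dim, at 3.01, 3.21 and 3.12 with X5050 against 3.20, 3.10 and 3.13 with DMSO (-0.030, SE 0.097), with full overlap.

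The difference between treatments varied by culture. The median change of the 58 genes was -0.094, -0.49 and -0.54 in cultures 1, 2 and 3, with 40, 52 and 57 genes below 0, against 49.8%, 49.4% and 49.1% of all tested probe sets. In cultures 2 and 3 together 51 genes were below 0, against 29% of all tested probe sets. In all 3 cultures 36 members were lower with X5050 (17.5% of all probe sets) and 0 were higher (18.1%). By class the medians in cultures 1, 2 and 3 were -0.068, -0.61 and -0.60 for H1, -0.048, -0.55 and -0.65 for H2A, and -0.053, -0.30 and -0.45 for H2B. They were -0.084, -0.66 and -0.60 for H3 and -0.20, -0.56 and -0.37 for H4. Culture 1 was thus nearest to 0 in every class, and the order of cultures 2 and 3 differed between classes.

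Most of the variation between arrays was among the DMSO samples. The median SD over 3 arrays was 0.12 with X5050 and 0.33 with DMSO for the 58 genes, against 0.11 with X5050 and 0.13 with DMSO for all tested probe sets. The DMSO SD was the larger for 46 of 58 members, against 57.7% of all tested probe sets. The median deviation of the members from each gene's own mean was -0.22, -0.21 and -0.13 with X5050 and -0.12, 0.24 and 0.46 with DMSO in cultures 1, 2 and 3. The DMSO sample of culture 3 was the highest of the 6 arrays for 44 genes, and that of culture 1 was the lowest DMSO sample for 49. The DMSO sample of culture 1 lay within the X5050 range for 28 genes, above it for 22 and below it for 8. The 3 X5050 values lay below all 3 DMSO values for 19 genes (7.41% of all tested probe sets) and above them for 0 (7.51%). With the DMSO sample of culture 1 set aside, the other DMSO samples lay above all X5050 samples for 47 genes, against 13.7% of all tested probe sets, a description made after these values were seen.

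**Figure D3:**
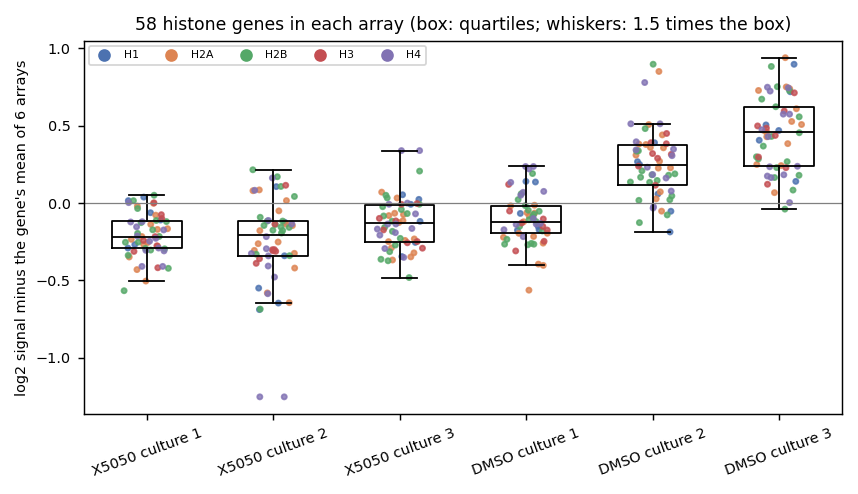
Log2 signal of each histone gene minus that gene's mean over 6 arrays (vertical axis), by array. Points are the 58 genes coloured by class, boxes the quartiles, whiskers reach at most 1.5 box heights. The 3 X5050 arrays and the DMSO array of culture 1 have medians below 0, and the other DMSO arrays medians of 0.24 and 0.46.

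Leaving out culture 1 raised the count of members past the threshold to 27 lower by the paired limma fit, where 1.2% of all probe sets were called lower. They were 2 H1, 10 H2A, 4 H2B, 5 H3 and 6 H4 genes, among them H1-3 (-1.07, adjusted p = 0.00333), H2AC8 (-1.02, 0.00343) and H4C5 (-0.94, 0.00359). Culture 1 had the median change nearest to 0 in every class, so leaving it out favours larger changes. A fit with a culture left out has fewer residual degrees of freedom, and its p-values rest more on the variance of all probe sets. Leaving out culture 2 left 0 members past the threshold, with a background of 0.206%, and leaving out culture 3 left 0, with a background of 0%. The median change of the 58 genes ranged from -0.58 to -0.26 over the fits that left out a culture or a single array. It was -0.26 without the DMSO sample of culture 3 and -0.57 without that of culture 1, both without the block, and 52 to 57 genes stayed below 0.

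Cultures also differed in mesenchymal and matrix genes, which are used as markers of mesenchymal cells. Over 17 such genes the mean log2 signal was 7.91, 6.75 and 6.89 with X5050 and 8.35, 7.03 and 6.87 with DMSO in cultures 1, 2 and 3, and the sum over the list ran from 115 to 134 with X5050 and from 117 to 142 with DMSO. Culture 1 was highest in both treatments, and 13 of the 17 genes were below 0, against 47.3% of all tested probe sets (median change -0.14, but 0.23 without the DMSO sample of culture 1 and without the block). LUM, a collagen-binding proteoglycan, fell by 1.09 on the log2 scale (adjusted p = 0.0386 in the paired limma fit), the 1 member of that list past the threshold (0.498% of all tested probe sets). Its treatments overlapped, and without the block its adjusted p in limma was 0.629, so this call rests on the pairing. None of the 17 was below the lower quartile of every array. Whether these genes come from separate cells or from the NSCs was not tested, nor was any part of theirs in the histone result. The 14 neural stem cell markers averaged 8.97, 8.85 and 8.91 with X5050 and 9.05, 9.07 and 9.11 with DMSO, and 9 of them were above the upper quartile of every array. One of them, LIX1, fell by 1.38 (adjusted p = 0.0177 in the paired limma fit), as did the astroglial marker GJA1 by 0.61 (0.0444), both on the log2 scale. These calls rest on the pairing too: without the block 0 probe sets were called, and LIX1 had an adjusted p of 0.172 in limma. Of the 3 pluripotency markers measured 1 was below the lower quartile of every array and 0 above the upper one.

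Other genes of the pathway were split in direction. The list of histone mRNA processing and histone gene transcription factors had 33 measured genes of 35, with 15 below 0, a median change of 0.0026 and 0 past the threshold in either direction in limma. Of all tested probe sets 47.3% were below 0 and 0.498% were past the threshold. A count of 0 in so short a list is near the latter share. CDK2, the kinase that phosphorylates NPAT, was at -0.30 (SE 0.089, adjusted p = 0.173 in limma), and the Sm proteins SNRPE (-0.29), SNRPB (-0.28) and SNRPF (-0.32) followed by p. Outside the naming rule, 3 dedicated factors, all above 0, are given for their role and do not stand for the list. Other such factors lay on both sides of 0, with ERI1 at -0.15, LSM10 at -0.085, ZNF473 at 0.010 and LSM11 at 0.096. NPAT, the coactivator of histone gene transcription, had 9.24, 9.34 and 9.23 with X5050 against 9.00, 9.13 and 9.06 with DMSO (change 0.21, SE 0.086, adjusted p = 0.324 in limma). SLBP, the stem-loop binding protein, had 8.41, 8.34 and 8.54 with X5050 against 8.50, 8.27 and 8.37 with DMSO (0.051, 95% interval -0.16 to 0.27). CASP8AP2, a component of the histone locus body, the nuclear body where histone mRNAs are made, was at 0.17 (SE 0.11). NPAT thus lay higher with X5050 in every culture without passing the threshold, and SLBP overlapped between treatments.

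Histone variants made outside S phase had 13 measured genes of 21, with 5 below 0 (47.3% of all tested probe sets), a median of 0.033 and 0 past the threshold (0.498%). H2AZ1, which replaces H2A at promoters, had 11.27, 11.26 and 11.19 with X5050 against 11.38, 11.44 and 11.49 with DMSO (-0.19, SE 0.090, adjusted p = 0.378 in limma). MACROH2A2 stood at -0.21, H3-3B, a gene of the H3.3 variant, at 0.16, and the oocyte linker histone H1-8 at 0.13. Of 25 histone chaperone genes 18 were below 0 (47.3% of all tested probe sets), with a median of -0.082 and 0 past the threshold (0.498%). In lists this short a count of 0 is near that share. NAP1L4, a carrier of H2A and H2B, stood at -0.29 and the CENPA chaperone HJURP at -0.23. Both lists had medians nearer to 0 than any of the 5 histone classes, with no test between lists.

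S phase genes, which act at the same stage of the cell cycle, had a median change of -0.087 with 18 of 24 below 0 and 0 past the threshold. For this list and the next ones, the shares of all tested probe sets were 47.3% below 0 and 0.498% past the threshold. A count of 0 past it is near that share. The S phase medians were -0.060, -0.19 and -0.092 in cultures 1, 2 and 3. CDC45, a helicase component, had 8.25, 8.21 and 8.10 with X5050 against 8.48, 8.57 and 8.60 with DMSO (-0.36, SE 0.094, adjusted p = 0.135 in limma), and GINS1, a partner in that helicase, stood at -0.40. In CDC45 the treatments did not overlap and the DMSO samples were close together. G2 and mitosis genes had a median of -0.18 with 20 of 26 below 0 and 0 past the threshold, with medians of -0.18, -0.30 and -0.058 in cultures 1, 2 and 3. PLK1, a mitotic kinase, stood at -0.63 (adjusted p = 0.0603 in limma) and BIRC5, which acts in chromosome segregation, at -0.43. Of 14 genes of cell cycle exit and the p53 response 4 were below 0, with a median of 0.071 and 0 past the threshold, and BTG1, an antiproliferative gene, stood at 0.51 (adjusted p = 0.0661 in limma). The histone genes had a median of -0.094 in culture 1, nearer to 0 than the mitotic median of that culture, and of -0.49 and -0.54 in cultures 2 and 3, farther from 0 than the S phase and mitotic medians. The difference between lists was not tested.

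**Figure D4:**
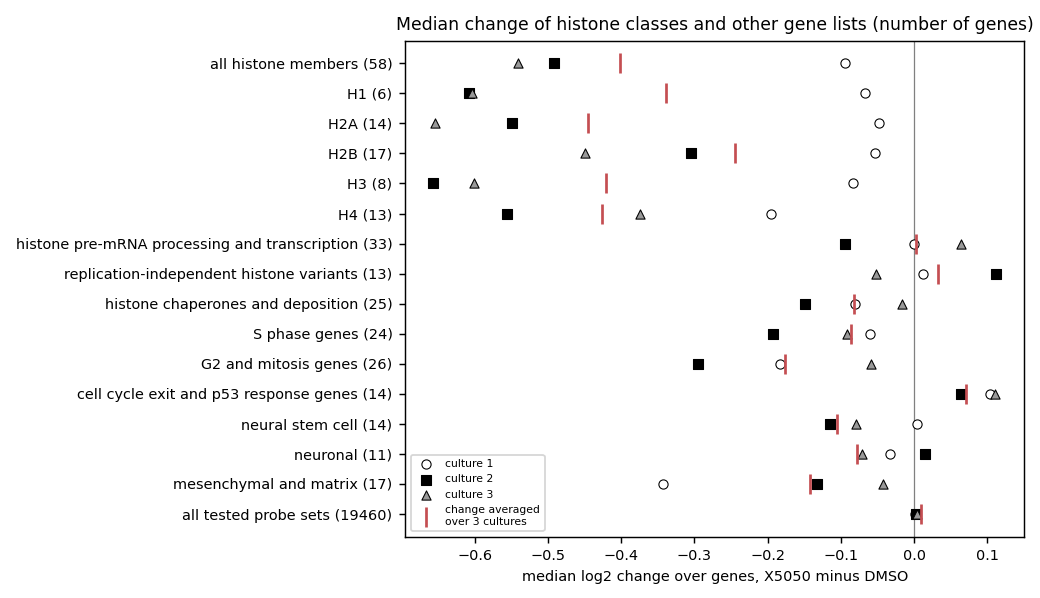
Median log2 change over genes (horizontal axis, X5050 minus DMSO) for the histone classes, related gene lists, marker lists and all tested probe sets, with the number of genes in parentheses. Symbols are single cultures and the red stroke the median of the changes averaged over cultures. The histone classes lie between -0.45 and -0.25, and the related lists between -0.18 and 0.071.

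Signal strength went with the size of the difference. The 31 members at or above the median signal of all tested probe sets (6.26) had a median change of -0.50 with 31 below 0, and the 27 dimmer members -0.23 with 25 below 0. All tested probe sets split at the same value had medians of -0.0045 and 0.019. RMA compresses differences between signals near background, and whether this bears on the split of the members was not tested.

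By position, 49 members lie on chromosome 6, 8 on chromosome 1 and 1 on chromosome 12. The median change was -0.40 for those on chromosome 6, with 48 below 0, and -0.42 for those on chromosome 1, with 7 below 0. Along chromosome 6 the 44 members with a promoter window formed 4 runs separated by gaps over 200 kb, with median changes of -0.068 for the pair of testis genes H2AC1 and H2BC1, -0.33 over 27 genes from H1-1 to H4C8, -0.41 over 4 from H2BC11 to H2BC12 and -0.44 over 11 from H2BC13 to H2BC17. Lower genes were found along the whole of the 3 larger runs. Members next to each other in this order could differ widely: H2BC14 at -1.16 stands between H2AC14 at -0.47 and H2AC15 at -0.49. Histone genes without a probe set of their own or a window are missing from the order.

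**Figure D5:**
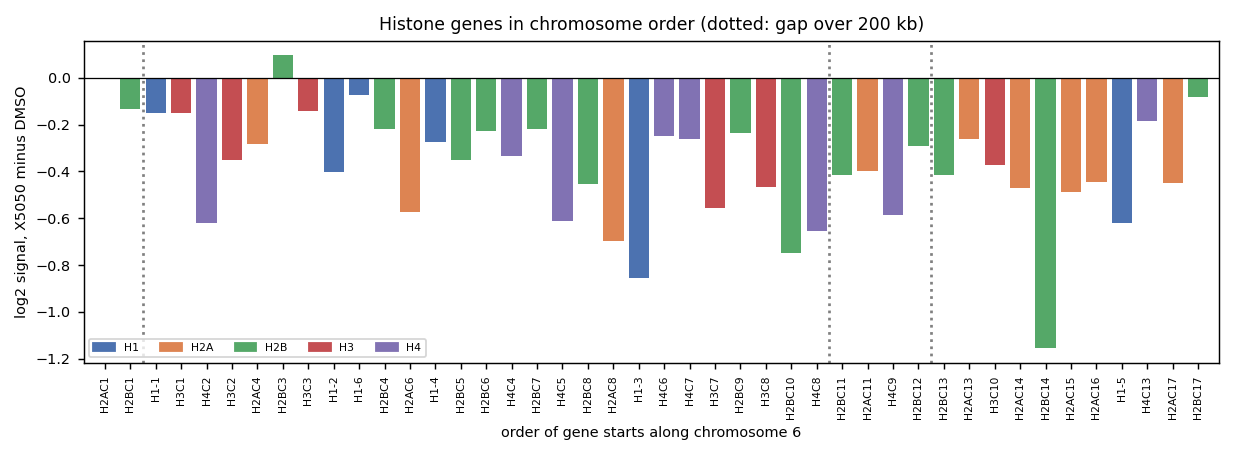
Log2 change, X5050 minus DMSO (vertical axis), averaged over 3 cultures, for 44 histone genes in the order of their starts along chromosome 6, coloured by class. Dotted lines mark gaps over 200 kb. Bars below 0 extend across the cluster, the lowest is H2BC14 at -1.16, and H2BC3 alone lies above 0.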

How the data were processed

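Total RNA (100 ng per sample) was labelled by the Affymetrix whole-transcript assay, per the labels' protocols, and hybridised to 1 array per sample, 6 in all. The authors deposited 1 log2 signal for each probe set and array. RMA and Partek were used, per the submitters' processing notes, whose settings and versions, like the build of the array annotation, are not given in the sources. RMA subtracts background, equalises distributions and compresses dim signals, and the values hold no detection measure used here. The arrays had medians of 5.68 to 5.75 and pairwise correlations of 0.984 to 0.993 over 33297 probe sets.

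Probe sets were named from the platform annotation: 19460 had 1 symbol and were tested, 1754 had several and 12083 none. All 58 members matched RefSeq (GRCh38.p14) by Entrez identifier with 0 changed symbols. Groups and replicate numbers came from the titles. X5050 minus DMSO was fitted with limma 3.58.1 (lmFit and eBayes, R 4.3.3, two-sided), with the replicate number as a block and Benjamini-Hochberg adjustment over 19460 probe sets at 0.05, which leaves 2 residual degrees of freedom per probe set. An exact permutation test of 3 against 3 that ignores the pairs cannot go below 0.1, and one that keeps the pairs has a higher floor. The design text names 3 independent cultures, each treated with either agent, without stating outright that every culture received both. The pairing thus rests on the shared replicate numbers and on a check of the data. After each treatment's mean was subtracted, X5050 and DMSO arrays of 1 culture had correlations of 0.365, 0.297 and 0.255, and arrays of different cultures of -0.236 to -0.052. Subtracting the mean pushes the latter below 0 once the former are above 0, so only the former bear on the pairing. The fit without the block, left-out cultures and arrays, other scalings and filters were the alternatives.

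The members, lists and tests were chosen with earlier results of these data known. Named were members past the threshold, the 4 with the smallest paired p and the 1 with the highest change per class, and up to 4 genes by p per list. There were 12 lists with 207 genes, 189 of them measured, each by its brightest probe set, and of the 12 those of astroglial, oligodendrocyte and neuronal markers had medians of 0.15, 0.041 and -0.078. The fit was tested on simulated data with planted changes larger than those of most members. The simulated noise was independent between genes, so that test does not bear on the histone result. Plots were drawn with matplotlib 3.10.9.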

Additional observations from a re-analysis of the deposited data

How the results depend on the processing

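No alternative put the median change of the 58 histone genes above 0, and it ranged from -0.58 to -0.26. The count below 0 was 52 to 57 with a culture or array left out, and 31 of the 31 members kept without dim probe sets. Members lower in every culture numbered 36, and 23 without dim probe sets. With a culture left out they numbered 37 to 51, a count that can only stay or rise because fewer cultures are required. Its background rises too, from 17.5% of all probe sets for all 3 cultures to 29% for cultures 2 and 3. The count of members past the threshold was less stable. It was 1 in the paired fit, 0 with no replicate block, 0 after another quantile normalization (H2BC14 at adjusted p = 0.0592 in limma) and 0 when all 33297 rows entered the adjustment. It was 2 with arrays centred on their medians or with the median of a gene's rows, 5 with a trended variance prior and 5 without dim probe sets. It ran from 0 to 27 with a culture or array left out. Probe sets called in all numbered 97, against 0 with no replicate block, 0 with all rows tested, 51 after another quantile normalization, 274 with a trended prior, 252 without dim probe sets and 0 to 346 with a culture or array left out. Fewer or more rows in the adjustment and the choice of prior move these counts by construction, and for the others the cause was not tested. The H4 median was -0.64 without dim probe sets, -0.61 without the DMSO array of culture 1 and no replicate block, and -0.63 to -0.29 with a culture or array left out. H1-6, H2AC1 and H4C16, all near 0, turned sign in some of these leave-outs, within -0.26 to 0.25, -0.069 to 0.066 and -0.10 to 0.052. With no replicate block and single arrays left out, H1-6 was at 0.14 without DMSO 3 and 0.036 without X5050 3, H2AC1 at 0.033 without DMSO 3, 0.0093 without X5050 1 and 0.032 without X5050 3, and H4C16 at 0.022 without X5050 1. Of 392 values of named members under the alternatives these were the 10 that turned sign. Leaving out the pseudogene, testis and duplicated members or adding rows of several symbols kept every class median on the same side of 0.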

Other observations

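Histone genes that the annotation could not separate were measured too. There were 20 probe sets annotated with several symbols of which at least 1 was a histone symbol of the kinds above, with 17 distinct sets of values. All 17 were below 0 with X5050 relative to DMSO, by a median of -0.28 and a range of -0.56 to -0.0072, and 9 were below 0 in all 3 cultures. Their medians in cultures 1, 2 and 3 were -0.058, -0.45 and -0.42. The lowest was the probe set of H2AC18, H2AC19, H2AC20 and H2AC21 (-0.12, -0.67 and -0.90 in the 3 cultures), and next was one of the probe sets of H4C11 and H4C12 (-0.45, -0.45 and -0.61). None passed an adjusted p of 0.05 in the paired limma fit over all rows, where 0 of 33297 did. These probe sets share sequence with members and are not independent of them.

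H2A and H2B genes often lie head to head and share the stretch between their starts. Among the members 9 such pairs had starts 215 to 248 bases apart, and in 8 of them both genes were below 0. H2AC11 and H2BC11 were alike (-0.40 and -0.42), while H2AC14 and H2BC14 (-0.47 and -1.16) and H2AC17 and H2BC17 (-0.45 and -0.081) were not. The median absolute difference within a pair was 0.24. Across the 9 pairs the changes of the H2A and H2B genes had a Pearson correlation of 0.36, given as a description of pairs measured on the same arrays.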
